A study of Mus musculus with 12 samples.

Results

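Intronic sites of H3K27me3 far from any promoter were described in immortalized mouse embryo fibroblasts (iMEF cells). They were chosen by position and width from the pooled list of peaks that the authors identified over all samples. A site was kept if it lay on chromosomes 1 to 19, was under 10000 bp wide, had its midpoint within a protein-coding gene but in no exon of any annotated gene, and lay with every base over 3 kb from every annotated transcription start site (TSS). By this rule 23368 of 101389 listed sites were intronic, which is 23.0% of the list. The genes and TSSs were those of GENCODE release M21 on the mouse assembly GRCm38 (mm10).

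The libraries came from a derivative of iMEF cells in which exon 4 of endogenous Ash2l had been deleted by an inducible Cre recombinase and which lived on human ASH2L fused at its N terminus to FKBP12F36V, delivered by a lentivirus. ASH2L is a core subunit of the complexes that methylate lysine 4 of histone H3, and the ligand dTAG has the fusion protein degraded. The series comprised 8 H3K27me3 libraries, 2 each from cells without dTAG and from cells treated with dTAG for 16, 24 or 48 h, and 4 input libraries, 2 without dTAG and 2 from the 48 h treatment, and all groups shared the deleted Ash2l and the fusion protein. The published legend gives the cells of this assay as a single clone, NG3, and calls the 2 libraries of a group biological replicates, while the labels name neither the clone nor separate cultures. The list gives 1 set of positions over all samples, with no count, score or value for a library. The depth behind a site is therefore unknown from it, and no site could be assigned to a group by it. The values below carry no replicate error and no test between time points. The authors' comparisons between time points were not analysed here.

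H3K27me3 is a modification of histone H3 with 3 methyl groups on lysine 27. It is placed by Polycomb repressive complex 2 and is a mark of repressed genes. It is best known from CpG-rich promoters of developmental genes that are silent in a given cell type, from which it can spread over a gene and its surroundings. Inside transcribed genes the mark is in general scarce, and broad low domains are found in silent regions.

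Sequences are shown for short sites of the leading genes, so that their letters can be read beside the counts. For each of the 10 genes with the most intronic sites, the site of at most 300 bp with the most CpG dinucleotides is printed below from the + strand of GRCm38.p6, with CpG dinucleotides in capitals. Ppp2r2b, the other of the 10, is not shown. Each lies in an intron of the gene named.
Fgfr2, chr7:132005902-132006181: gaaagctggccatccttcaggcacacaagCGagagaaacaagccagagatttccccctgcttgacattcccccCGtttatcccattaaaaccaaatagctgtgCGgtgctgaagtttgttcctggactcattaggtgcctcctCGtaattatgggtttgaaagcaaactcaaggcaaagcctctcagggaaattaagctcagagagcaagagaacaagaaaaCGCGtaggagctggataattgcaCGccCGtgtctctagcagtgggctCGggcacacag
Tenm2, chr11:36157156-36157438: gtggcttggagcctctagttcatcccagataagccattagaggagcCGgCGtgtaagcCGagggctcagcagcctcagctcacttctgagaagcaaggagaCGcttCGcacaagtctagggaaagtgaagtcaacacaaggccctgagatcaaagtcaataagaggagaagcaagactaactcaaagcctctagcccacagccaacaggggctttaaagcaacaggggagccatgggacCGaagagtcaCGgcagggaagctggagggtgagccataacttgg
Gm20388, chr8:123703974-123704242: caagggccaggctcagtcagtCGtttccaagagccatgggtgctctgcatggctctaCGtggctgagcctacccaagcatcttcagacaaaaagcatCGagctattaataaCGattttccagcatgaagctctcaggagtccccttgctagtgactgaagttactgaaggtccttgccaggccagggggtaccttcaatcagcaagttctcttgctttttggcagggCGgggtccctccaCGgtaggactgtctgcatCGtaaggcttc
Atp8a2, chr14:59647938-59648141: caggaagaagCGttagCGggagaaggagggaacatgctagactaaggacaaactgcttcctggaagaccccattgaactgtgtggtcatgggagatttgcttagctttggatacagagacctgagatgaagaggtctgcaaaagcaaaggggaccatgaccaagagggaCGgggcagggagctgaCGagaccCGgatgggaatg
Grip1, chr10:119970583-119970854: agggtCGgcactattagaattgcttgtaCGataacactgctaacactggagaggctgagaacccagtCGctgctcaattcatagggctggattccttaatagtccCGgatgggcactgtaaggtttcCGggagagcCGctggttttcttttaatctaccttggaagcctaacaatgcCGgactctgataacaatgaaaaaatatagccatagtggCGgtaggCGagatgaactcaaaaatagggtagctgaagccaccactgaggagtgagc
Grin2b, chr6:135781139-135781422: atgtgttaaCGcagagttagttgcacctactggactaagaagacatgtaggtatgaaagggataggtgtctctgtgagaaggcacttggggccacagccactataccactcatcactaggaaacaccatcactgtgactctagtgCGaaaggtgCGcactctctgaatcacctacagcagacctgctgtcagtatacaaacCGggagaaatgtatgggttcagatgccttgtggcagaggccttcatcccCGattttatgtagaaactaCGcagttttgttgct
Myo3b, chr2:70307850-70308092: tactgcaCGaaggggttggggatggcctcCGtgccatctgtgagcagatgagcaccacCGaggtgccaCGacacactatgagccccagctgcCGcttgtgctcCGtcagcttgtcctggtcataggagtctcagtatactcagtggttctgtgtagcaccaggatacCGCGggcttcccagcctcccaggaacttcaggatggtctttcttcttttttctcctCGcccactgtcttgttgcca
Ryr3, chr2:112689343-112689628: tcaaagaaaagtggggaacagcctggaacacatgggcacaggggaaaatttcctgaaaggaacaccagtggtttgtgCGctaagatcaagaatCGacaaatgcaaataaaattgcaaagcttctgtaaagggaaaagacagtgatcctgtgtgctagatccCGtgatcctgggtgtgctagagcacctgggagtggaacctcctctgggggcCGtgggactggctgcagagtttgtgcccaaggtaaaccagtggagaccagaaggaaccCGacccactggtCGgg
Camta1, chr4:150937743-150938019: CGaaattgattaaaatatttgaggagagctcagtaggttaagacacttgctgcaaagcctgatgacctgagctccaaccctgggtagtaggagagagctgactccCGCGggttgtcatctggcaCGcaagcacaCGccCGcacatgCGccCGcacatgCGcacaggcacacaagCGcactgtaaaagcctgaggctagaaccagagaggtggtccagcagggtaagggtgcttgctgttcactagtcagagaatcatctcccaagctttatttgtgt

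The 9 stretches held 5 to 10 CpG dinucleotides at a GC content of 47.5 to 56.8%. They were chosen for the most CpG dinucleotides among the 10 to 44 sites of at most 300 bp in each gene, and wider sites were not considered, so they do not stand for the sites as a whole, whose median width was 624 bp. The stretch in Tenm2 lay in intron 11 of 30 of the longest coding transcript, and that in Grin2b in intron 5 of 13. The stretch in Camta1 also lay in intron 6 of Tnfrsf9, a shorter gene within Camta1. Repeat-masked bases ranged from 0% of the stretches in Tenm2, Gm20388 and Atp8a2 to 74.8% of that in Ryr3.

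The intronic sites were short and lay close to other listed sites. Their widths ranged from 200 to 9977 bp with a median of 624 bp (95% interval from order statistics 614 to 634 bp) and quartiles of 353 and 1373 bp. The smallest possible width of 200 bp was shared by 633 sites, and 881 sites (3.77%) were at least 5000 bp wide. The median distance to the nearest TSS was 15421 bp, with quartiles of 7662 and 33208 bp and a maximum of 381094 bp. The median gap to the next intronic site was 1373 bp. The nearest listed site of any kind lay at a median of 472 bp, against 513 bp for intergenic sites far from TSSs. Such a neighbour within 1 kb was found for 73.6% of the intronic sites. In contrast, 208 sites (0.890%) stood more than 50 kb from every other listed site. Together the intronic sites covered 28.2 Mb.

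Both thresholds of the rule fell in a continuous range of values. The widest intronic site was 9977 bp, in Gsg1l, and the narrowest site that met every condition but width was 10004 bp. There were 77 intronic sites of 9000 to 9999 bp and 67 sites of 10000 to 10999 bp that were left out by width. In all, 309 sites in introns far from TSSs were left out for width alone. The nearest intronic site lay 3001 bp from a TSS. At distances of 3001 to 3500 bp there were 757 intronic sites, against 796 sites at 2501 to 3000 bp that were left out.

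To relate the number of sites to the room they had, the territory was defined as all bases outside assembly gaps that meet the position rule (in a protein-coding gene, in no exon, over 3 kb from every TSS). It held 716.6 Mb, in which the 23368 sites amounted to 32.6 sites per Mb. Listed sites of any kind covered 6.24% of the territory, of which the intronic sites themselves accounted for 3.81% and sites of at least 10 kb for 1.77%. Intergenic sites under the same limits of width and distance numbered 42791 in 1121 Mb, or 38.2 per Mb, so that the intronic density was 0.855 of the intergenic density, and it was the lower of both on 14 of 19 chromosomes. The covered share was nearly equal, at 6.24% of the intronic and 6.14% of the intergenic territory. The median width of the intergenic sites was 607 bp (95% interval 599 to 614 bp), below the intronic median and outside its interval.

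Few genes held most of the sites, and those with the most were long. Of 20807 protein-coding genes, 15149 had some territory, and 2926 of these (19.3%, 95% Wilson interval 18.7 to 19.95%) held at least 1 intronic site. At least 5 sites were held by 1164 genes (7.68%), at least 20 by 275 genes and at least 50 by 82 genes. A site in overlapping genes counts for each of them, which added 424 to give 23792 assignments. The distribution was uneven: 265 genes, 1.75% of the genes and 12.5% of the territory, held 50% of the assignments, and 765 genes held a single site. The 25 leading genes, with 273 to 2980 kb of territory each, held 2744 sites, which is 11.5% of the assignments, at 47.6 to 323.2 sites per Mb against 32.6 in the whole territory.

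**Figure D1:**
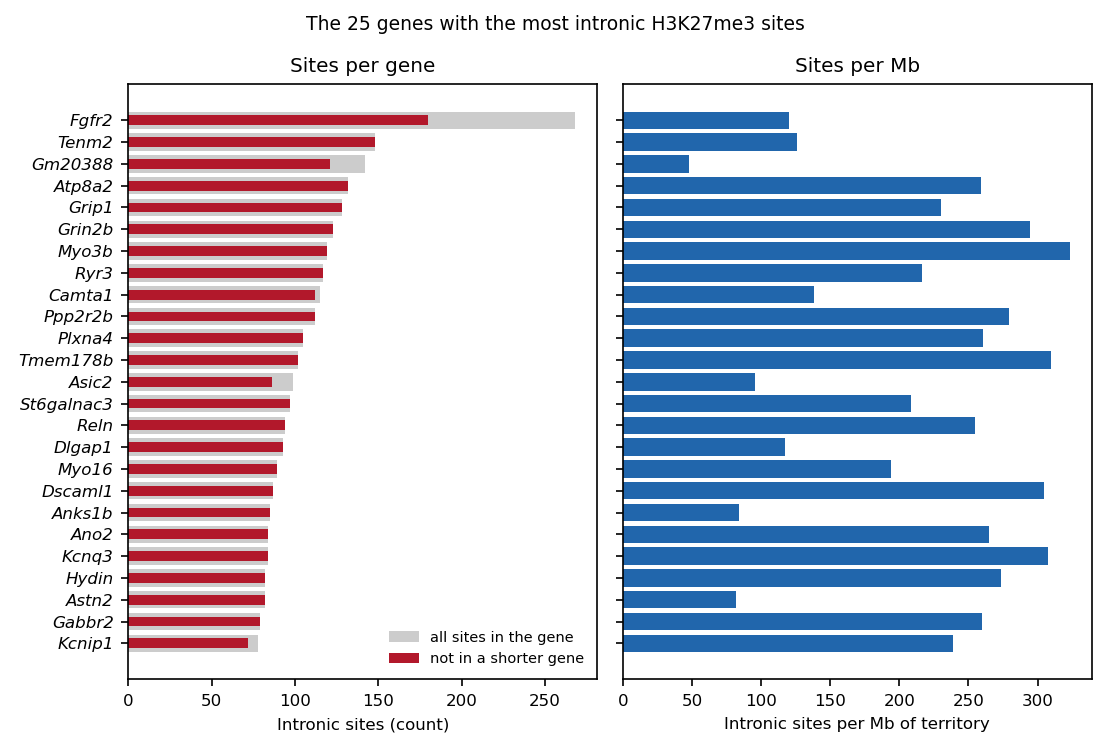
Intronic sites in the 25 genes with the most sites, as counts (left, grey bars for all sites in the gene and red bars for those that lie in no shorter protein-coding gene) and per Mb of the gene's territory (right). Fgfr2 leads with 268 sites, of which 180 lie in no shorter gene, whereas Myo3b leads the 25 by density with 323.2 sites per Mb.

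By count the first gene was Fgfr2, a receptor for fibroblast growth factors, with 268 sites. This rests on its annotation. The gene spans chr7:130162451-133123350 only because of 1 of its 27 annotated transcripts, which is 2961 kb long, whereas the other transcripts together span 104 kb. None of the 268 sites, and no listed site of any class, lay within that 104 kb. The long model contains 29 other protein-coding genes, and 88 of the sites lay in 1 of these, 43 of them in 5430419D17Rik and 15 in Dmbt1. The third gene, Gm20388 with 142 sites, was a similar case: a single transcript over chr8:119910841-124345722 that contains 71 other protein-coding genes. When each site was counted only for the shortest gene around it, Fgfr2 kept 180 sites and Gm20388 121 (19.4 and 18.9% of their territory lay within listed sites of any class), and 24 of the 25 leading genes remained among the first 25.

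After Fgfr2, Tenm2 held the most, with 148 sites that all lay within the span of its other transcripts too, and 17.1% of its territory lay within listed sites of any class. It encodes a teneurin, a transmembrane protein of cell contacts and synapses, and spans chr11:36006656-37235964. Its sites were not evenly placed. Of 5 equal parts of the gene, the first held 9 sites, the second 0 and the last 61, and neighbouring intronic sites lay up to 523 kb apart. Atp8a2, a phospholipid flippase (chr14:59638540-60197179), held 132 sites with 37.6% of its territory covered, and Grip1, a scaffold protein that binds AMPA receptors (chr10:119453830-120087261), held 128 with 30.0% covered. In these the sites were spread over the gene, with 20 to 34 sites in each of 5 equal parts of Atp8a2 and 13 to 37 in each of Grip1, and no intronic neighbours more than 28.3 kb apart in Atp8a2 or 26.8 kb apart in Grip1.

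Grin2b, which encodes the GluN2B subunit of the NMDA receptor (chr6:135713233-136173511), held 123 sites at 294.7 per Mb, and 44.9% of its territory lay within listed sites. The sites were evenly spread, with 21 to 27 in each of 5 equal parts of the gene. Myo3b, a class III myosin of sensory cells (chr2:70039126-70429198), held 119 sites at 323.2 per Mb with 52.4% covered. Up to 61 of its sites followed each other with less than 10 kb between neighbours. Ryr3, a calcium release channel of the endoplasmic reticulum (chr2:112631355-113217096), held 117 sites, but at a median width of 534 bp these and other listed sites covered 21.6% of its territory.

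Camta1, a calmodulin-binding transcription activator (chr4:150917322-151861876), held 115 sites with a median width of 830 bp and 42.8% of its territory covered. Its first intronic site was centred 113 kb from the start of the gene. Ppp2r2b, a regulatory subunit of protein phosphatase 2A, held 112 sites at 279.5 per Mb with 40.2% covered. Plxna4, a semaphorin receptor (chr6:32144268-32588192), held 105 sites and had the largest covered share of the 25 genes, 66.2%. Tmem178b, which encodes a membrane protein, held 102 sites at 309.7 per Mb with 48.0% covered, and 85 of them formed 1 run with less than 10 kb between neighbours.

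**Figure D2:**
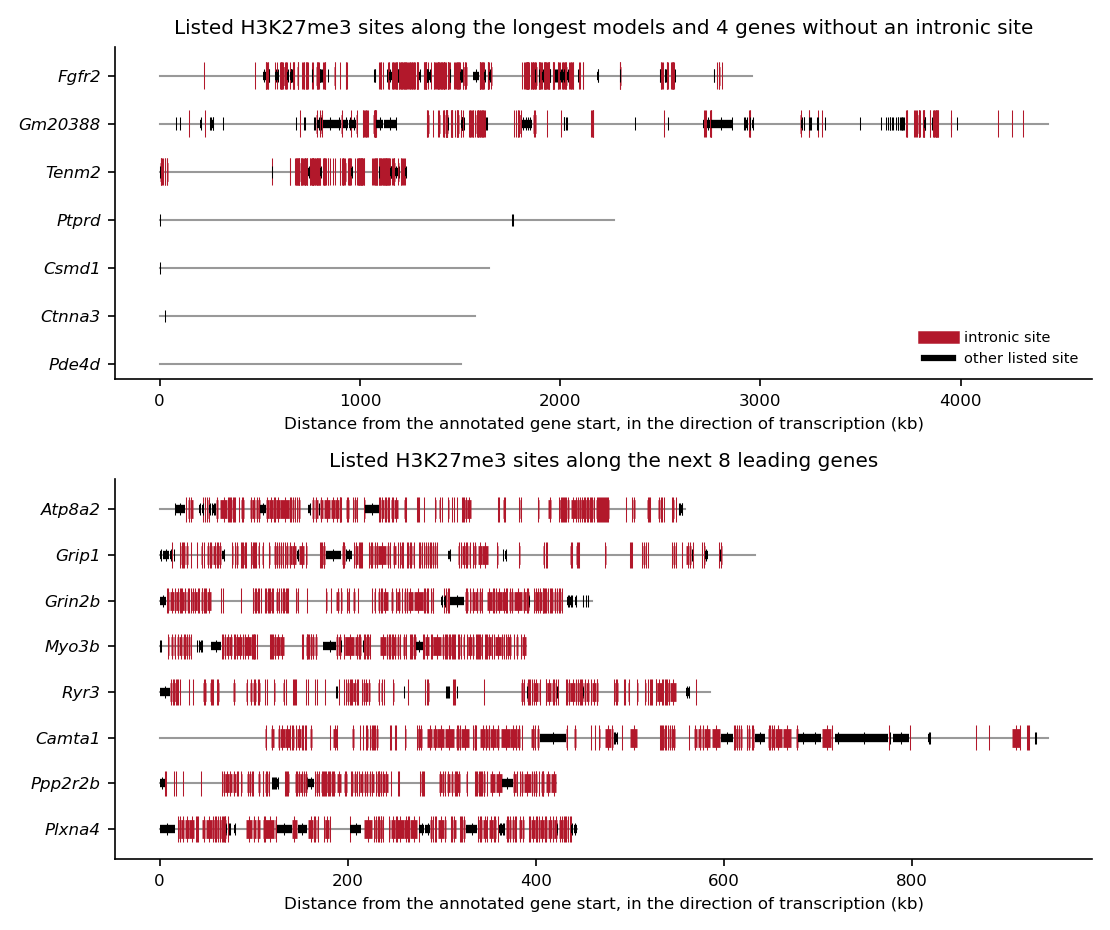
Listed sites along genes, in kb from the annotated start in the direction of transcription (left to right). Red bars are intronic sites, black bars are other listed sites (wide, exonic or within 3 kb of a TSS), and each site is drawn at least as a thin line. Fgfr2 has no site in its last 104 kb, Tenm2 holds no intronic site in the second of 5 equal parts, the 8 genes in the lower panel hold 105 to 132 sites each, and Ptprd, Csmd1, Ctnna3 and Pde4d hold 0 intronic sites.

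The counts of some of the 25 genes also rest in part on the longest transcript. The span of the other transcripts held 37 of the 132 sites of Atp8a2, 17 of the 102 of Tmem178b, 43 of the 99 of Asic2, 41 of the 79 of Gabbr2 and 0 of the 105 of Plxna4, whose next longest transcript measured 1.43 kb.

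The other genes of the first 25 held 78 to 99 sites each, and listed sites covered from 6.17% of the territory in Astn2 to 58.3% in Gabbr2. They included ion channels and their partners (Asic2, an acid-sensing channel, with 99 sites, Ano2, a calcium-activated chloride channel, with 84, Kcnq3, a voltage-gated potassium channel, with 84, and Kcnip1, a potassium channel partner, with 78). They also included proteins of neuronal migration and synapses (Reln with 94 sites, Dlgap1 with 93, Dscaml1 with 87, Anks1b with 85, Astn2 with 82 and Gabbr2, a subunit of the GABA-B receptor, with 79). The remaining 3 were St6galnac3, a sialyltransferase, with 97 sites, Myo16, an unconventional myosin, with 89, and Hydin, a protein of motile cilia, with 82. A listed site within 1 kb of a TSS of a protein-coding transcript was present in 23 of the 25 genes, against 4203 of the 15149 genes with territory. The exceptions were Fgfr2 and Gm20388. Among genes with at least 300 kb of territory, 63 of 94 at a GC content of 40 to 42% had such a site. The same held for 46 of 70 at 42 to 44% and 49 of 76 of at least 44%. At least 1 site of 10 kb or more overlapped 21 of the 25 leading genes, against 1095 of the 15149 genes with territory.

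Ranked by density, shorter genes came first. Among genes with at least 5 sites and at least 20 kb of territory, C8b, a chain of complement component C8, had 549.3 sites per Mb, with 15 sites in 27.3 kb. Nod2, an intracellular sensor of bacterial cell wall fragments, had 16 sites at 537.1 per Mb, and Rdh16, a retinol dehydrogenase of liver, 16 sites at 528.2 per Mb. The next were Cndp1, a dipeptidase, with 11 sites, 5530401A14Rik with 13, Slc22a2, a transporter of organic cations, with 18, Prrxl1, a homeodomain factor of sensory neurons, with 19, Tmc7 with 15, Gfra3, a co-receptor for artemin, with 11, and Gabrr1, a GABA receptor subunit, with 11. Some of these counts rest on 1 long transcript as well: only 3 of the 16 sites of Rdh16 and 0 of the 13 of 5530401A14Rik lay within the span of the gene's other transcripts, of which the longest measured 14.7 kb and 5.74 kb. In Cndp1, 5 of the 11 sites lay within that span. All 10 had a listed site at a promoter, against 4203 of the 15149 genes with territory. From 38.6 to 67.8% of the territory of the 10 was covered.

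The relatives of the leading genes ranged from 0 to 34 sites. The genes with territory that share a symbol root with the first 11 genes other than Gm20388 were listed after the values had been seen. This gave 18 other genes in 10 families on chromosomes 1 to 19. Since the leading genes were picked by their counts, a relative outside them has fewer sites by the way they were picked, and the values are given as a description only. Of the 18, 9 held 0 sites and 9 held at least 1, against 19.3% of all genes with territory. Grin2a, the GluN2A gene, held 3 sites in 401.7 kb of territory with 0.978% covered, against 123 in 417.4 kb of Grin2b with 44.9% covered, at a nearly equal GC content (43.3 and 43.2%), and both had a listed site at a promoter. Tenm3 held 0 sites in 573.7 kb and Tenm4 held 27 in 633.0 kb with 3.21% covered, against 148 in 1174 kb of Tenm2. Plxna2 held 0 sites in 140.1 kb, and neither it nor Plxna1 had a site at a promoter.

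The order by count was not always that by covered share, which includes listed sites of every class and is relative to the territory of the gene. Ryr1 held 9 sites in 75.1 kb at 119.8 per Mb and Ryr3 117 in 540.6 kb at 216.4 per Mb, but listed sites covered 52.4% of the territory of Ryr1 and 21.6% of that of Ryr3. Ryr2 held 34 sites at 73.7 per Mb with 8.23% covered. Grin2c held 0 intronic sites although 100% of its 4.93 kb of territory lay within listed sites, and Grip2 held 3 sites with 81.4% of its territory covered. Ppp2r2c held 5 sites with 82.1% covered.

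Many of the longest genes held no site at all. Of 441 genes with at least 300 kb of territory, 201 held 0 intronic sites, 74 held fewer than 10 per Mb and 51 held at least 100 per Mb. The genes with the most territory and no site were Ptprd (2160 kb), Csmd1 (1572 kb), Ctnna3 (1522 kb), Pde4d (1398 kb), Naaladl2 (1292 kb), Lrrc4c (1259 kb), Nkain2 (1146 kb), Prkg1 (1145 kb), Ccser1 (1130 kb) and Sgcz (1114 kb). These encode, among others, a receptor tyrosine phosphatase (Ptprd), an alpha-catenin (Ctnna3), a cyclic AMP phosphodiesterase (Pde4d), a synaptic adhesion protein (Lrrc4c), a cyclic GMP-dependent kinase (Prkg1) and a sarcoglycan (Sgcz). At most 0.0121% of the territory of any of the 10 lay in a listed site of any class, although 6 of them had a listed site at a promoter. The GC content of their territory ranged from 35.9% in Sgcz to 40.2% in Csmd1, against 40.1 to 50.5% in the 25 leading genes.

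Long genes of higher GC content had a higher density of sites. Among genes with at least 300 kb of territory, the density was 3.99 sites per Mb in the 90 genes with a GC content under 38% and 64.2 per Mb in the 76 genes of at least 44%. Where a listed site lay at a promoter, the density rose from 5.66 to 88.0 per Mb between the same limits, and the share of genes with a site from 48.2 to 85.7%. Where none did, there was no steady rise: a site was held by 1 of 34 genes under 38%, 22 of 59 (37.3%) at 38 to 40%, 8 of 31 (25.8%) at 40 to 42%, 7 of 24 (29.2%) at 42 to 44% and 9 of 27 (33.3%) of at least 44%. In the last group, 500 sites were counted, of which 268 were those of Fgfr2 and 142 those of Gm20388.

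Longer genes held a site more often but not at a higher density. The share of genes with a site was 7.76% (95% Wilson interval 7.12 to 8.46%) for up to 10 kb of territory, 28.2% (26.7 to 29.7%) for 30 to 100 kb and 70.2% (56.0 to 81.3%) for more than 1000 kb. The density was 36.9 sites per Mb at 10 to 30 kb and 22.6 per Mb above 1000 kb. The sites of genes with many were somewhat wider than single ones: the median width was 527 bp in the 765 genes with 1 site, 629 bp in genes with 5 to 19 sites, 614 bp in genes with 20 to 49 and 652 bp in the 82 genes with at least 50.

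Genes with a listed site at a promoter held more intronic sites than other genes. A listed site within 1 kb of the TSS of a protein-coding transcript was found in 4203 of the 15149 genes. Of these, 50.5% (95% Wilson interval 49.0 to 52.0%) held an intronic site, against 7.34% (6.86 to 7.84%) of the other 10946. With sites and bases in overlapping genes counted for each gene, the genes with a promoter site had 43.7% of the summed territory and 85.4% of the 23792 assignments, at 63.3 against 8.43 sites per Mb, a ratio of 7.51. The ratio was above 1 on each of the 19 chromosomes and ranged from 3.88 to 19.1. The genes without a promoter site included Fgfr2 and Gm20388, which held 410 of their 3481 sites.

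A CpG island at the promoter (a CpG-rich stretch, typical of housekeeping and developmental genes, found here by its sequence) went with lower densities in both groups. Among genes with a promoter site, the density was 56.1 sites per Mb with an island and 92.8 without, while 49.0 and 52.9% of the genes held a site. Among genes with none, it was 4.93 per Mb with an island and 17.1 without, and 3.56 and 14.4% of the genes held a site. Genes that overlapped a listed site of at least 10 kb had 133.1 sites per Mb, against 21.8 in the others.

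**Figure D3:**
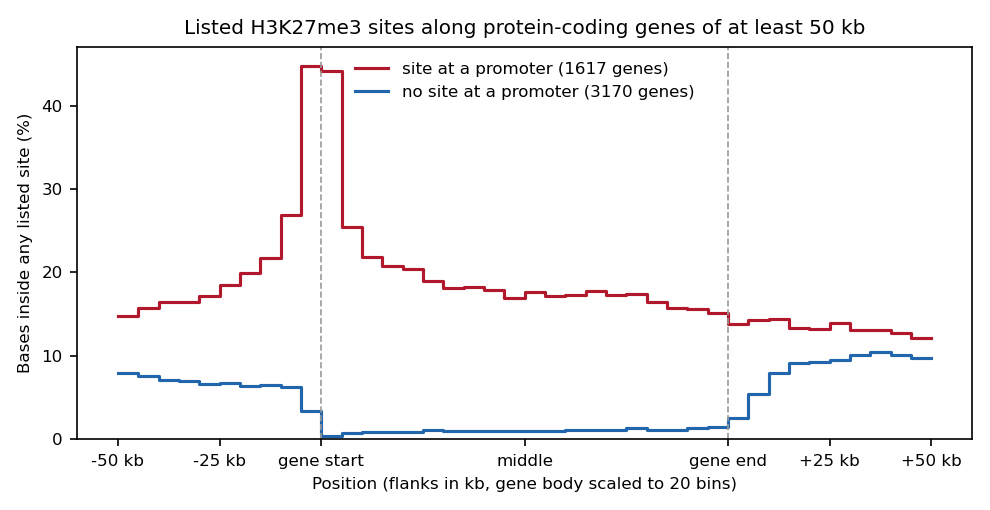
Share of bases inside any listed site (percent, mean over genes) along protein-coding genes of at least 50 kb and 50 kb to either side, for 1617 genes with a listed site within 1 kb of a TSS (red) and 3170 genes with none (blue). The gene body is scaled to 20 bins and the flanks are in bins of 5 kb. The blue line falls from 7.93% at the far upstream end to at most 1.44% inside the gene and is back at 9.67% at the far downstream end, whereas the red line falls from 44.2% in the first bin to 15.1% in the last bin of the gene.

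The profile along genes of at least 50 kb showed the borders of the gene in the group without a promoter site. In these 3170 genes, listed sites of any class covered 7.93% of the bases 45 to 50 kb upstream and 3.38% of the last 5 kb before the start. Within the gene they covered 0.417 to 1.44% of each of 20 bins. In the 5 kb after the end the share was 2.59%, and it reached 7.97% at 10 to 15 kb and 10.5% at 35 to 40 kb beyond the end. The first bin contains a TSS without a listed site by the way the group was made, but the later bins and the far end are not fixed by it. In the 1617 genes with a promoter site the share was 44.2% in the first bin, 17.6% in the bin after the middle of the gene, 15.1% in the last bin and 13.8% in the 5 kb beyond.

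The distance from the nearest TSS showed a similar order. In genes with a promoter site, the density was highest at 5 to 10 kb, with 85.1 sites per Mb, and fell to 78.2 at 10 to 20 kb, 64.6 at 20 to 50 kb, 46.0 at 50 to 100 kb and 26.0 beyond 100 kb. In genes without, it was 9.30 sites per Mb at 5 to 10 kb, 8.58 at 20 to 50 kb and 1.32 beyond 100 kb, where 24 sites were counted in 18.1 Mb. The bin of 3 to 5 kb is too low by construction, because a midpoint there belongs to an intronic site only if the whole site stays beyond 3 kb.

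**Figure D4:**
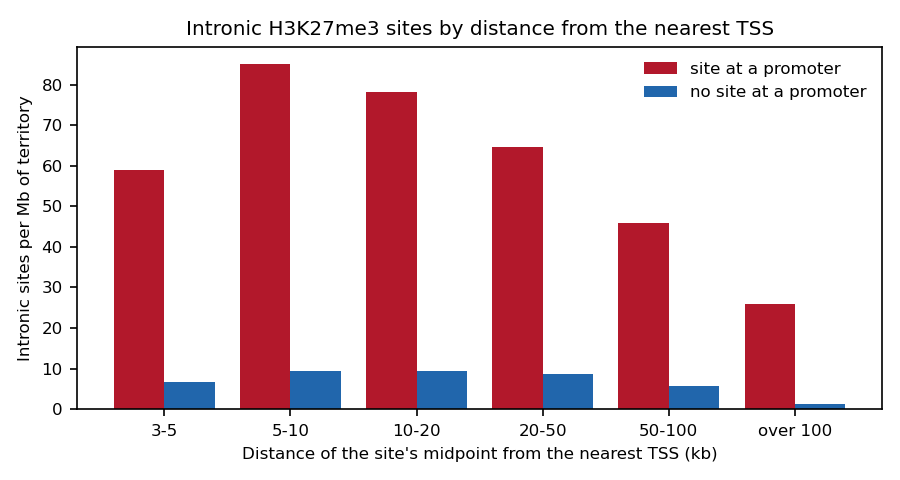
Intronic sites per Mb of territory by the distance of the midpoint from the nearest TSS, for territory in genes with a listed site at a promoter (red) and in other genes (blue). From 5 kb on, the red bars fall from 85.1 to 26.0 sites per Mb and the blue bars from 9.30 to 1.32.

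The density of sites differed little between introns by their order, and the order of the densities was not the same in genes with and without a promoter site. In the longest coding transcript of the shortest gene around each site, the first intron held 25.2% of the sites, the second 15.5%, later introns 48.1% and the last intron 6.23%. The densities were 36.2 sites per Mb in first introns, 34.5 in second, 30.8 in later and 27.5 in last introns, and 45.3 in the introns of transcripts with a single one. In genes with a promoter site the densities of first, second, later and last introns were 67.4, 60.8, 62.6 and 61.2 per Mb. In genes without, they were 7.07, 8.86, 7.30 and 8.61 per Mb, so that first introns were lowest there, and the density was 21.3 per Mb in the parts of these genes outside the longest transcript.

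In genes with a promoter site, intronic bases were covered less than exonic bases. More than 3 kb from every TSS, 22.4% of the exonic and 12.6% of the intronic bases of genes with a promoter site lay in a listed site. In genes without, the shares were 1.46 and 1.20%, and the order depended on the promoter: it was 0.601% of exonic and 0.846% of intronic bases in the 7114 genes with a CpG island there, and 3.74 and 2.09% in the 3832 genes without one. Distances beyond 3 kb were not matched between exons and introns. The 2008 exonic sites of the list had a median width of 627 bp (95% interval 593 to 664 bp), which overlaps the interval of the intronic sites, and a density of 37.1 sites per Mb.

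The sites lay in stretches of above-average GC content and below-average repeat content. The median GC content of an intronic site was 47.7% (95% interval 47.7 to 47.8%), with quartiles of 45.6 and 50.2%, against 42.2% in the territory as a whole. Within genes the difference was smaller but had the same sign: in 1128 of 1164 genes with at least 5 sites the median site exceeded the territory of its own gene, by a median of 3.01 percentage points. Of all bases of the intronic sites 18.2% were repeat-masked, against 29.2% of the territory. The median site was masked over 12.8% of its length, and in 1104 of the 1164 genes it was masked less than its gene. Base composition and repeats can both affect sequencing and read placement, and their part in the listing of sites was not tested. The intergenic sites had a median GC content of 47.5% in a territory of 40.8%.

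The ratio of observed to expected CpG, which allows for GC content, was close to that of the territory. Pooled over all bases of the intronic sites it was 0.198, against 0.185 over the territory as a whole. The median over single sites was 0.182, and 764 sites (3.27%) held no CpG at all. There were 59 sites (0.252%) that overlapped a CpG island, against 10.97% of the sites within 3 kb of a TSS and 36.9% of the sites of at least 10 kb. The territory held 270 of the 15196 islands on chromosomes 1 to 19. Of these, 24 (8.89%, 95% Wilson interval 6.05 to 12.9%) overlapped an intronic site and 84 (31.1%) overlapped a listed site of any class.

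Set against intergenic sites at the same GC content, the intronic density was the lower of both above 41% GC, nearly equal at 38 to 41% and the higher of both under 38%. In 10 kb windows with a GC content of 44 to 47%, there were 57.5 intronic sites per Mb of intronic territory and 97.1 intergenic sites per Mb of intergenic territory, a ratio of 0.592. The ratio was 0.657 at 41 to 44%, 0.591 at 47 to 50% and 0.641 above 50%. It was 0.979 at 38 to 41%, and in windows under 38% it was 1.35, at 2.44 against 1.81 sites per Mb.

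The sites left most of the territory empty. Of 6627 windows of 100 kb with at least 50 kb of territory, 4644 (70.1%) held no intronic site, whereas 673 windows (10.2%) held at least 10 each and together 72.1% of the sites counted. The mean was 2.50 sites per window and the maximum 45. By chromosome the density ranged from 20.6 sites per Mb on chromosome 3 to 44.9 on chromosome 11.

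Some of the empty territory coincided with patched stretches of the reference. The assembly GRCm38.p6 holds patches, extra scaffolds that repeat stretches of the chromosomes with corrections. Stretches of chromosomes 1 to 19 that align to such a patch over at least 10 kb at 99% identity or more came to 15.2 Mb. They held 0 of the listed sites of any class, with 3.95 Mb of intronic territory (0.551%), where the mean density would give 129 intronic sites. The 129 genes that lay mostly in such stretches held no site, and the part of the patches in this was not tested. None of the 25 leading genes, the 10 longest genes without a site and the members of the lists below overlapped one.

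With the sites of each list pooled, 2 of the 7 lists of genes lay well above the density of all genes, 1 near it and 2 below it. The other 2 held no site. The lists were chosen with earlier results of these data known and include leading genes, among them Grin2b, Ryr3, Tenm2, Camta1 and Plxna4. Their counts are in part set by that choice and are given as a description only. Of 15149 genes with territory, 4203 had a listed site at a promoter. At least 1 intronic site was held by 19.3% of the 15149 genes and at least 5 by 7.68%, at a median density of 0 sites per Mb over all of these genes. Pooled over their territory the density was 32.4 sites per Mb, with 6.21% covered, and the median gene had 14.8 kb of territory, less than in any list. The list of ion channel and glutamate receptor genes stood highest, with at least 1 site in 28 of 33 genes (84.8%), at least 5 in 24 genes (72.7%) and a median of 73.7 sites per Mb. At a median territory of 360.0 kb, the share with a site stood against 52.5% of all genes with 300 to 1000 kb. Its 1026 sites stood against 390.1 at the density of all genes, and 18.6% of its territory was covered. Besides Grin2b (123 sites) and Ryr3 (117), Kcnq3 held 84. The members with the most territory and 0 sites were Grm7, a metabotropic glutamate receptor (902.6 kb), and Cacna2d1, an auxiliary calcium channel subunit (390.2 kb). A listed site lay at a promoter in 32 of the 33 genes, among them both of these.

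Genes of neuronal adhesion and synapses held sites in 20 of 30 cases (66.7%) and at least 5 in 15 (50.0%). Their median density was only 4.25 sites per Mb at a median territory of 1048 kb, although 29 of the 30 had a listed site at a promoter. The share of genes with a site was near the 70.2% of all genes with more than 1000 kb. The list held 664 sites where the density of all genes would give 1076, and 2.52% of its territory was covered. Tenm2 held 148 sites, Rbfox3, a splicing factor of mature neurons, 76 and Opcml, an adhesion protein, 67. Ptprd and Csmd1 were the largest with 0 sites.

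Developmental transcription factor and cofactor genes held sites in 23 of 45 cases (51.1%), with at least 5 in 15 (33.3%) and a median of 1.96 sites per Mb. Their median territory was 168.0 kb, and 34.9% of all genes with 100 to 300 kb held a site. Their 393 sites were close to the 378.2 that the density of all genes would give, but 115 of them were those of Camta1 alone. Of the territory of the list, 12.5% was covered. After Camta1, Prdm16, a regulator of brown fat and of haematopoietic stem cells, held 51 sites and Ebf2, a factor of adipocyte precursors, 45. The largest with 0 sites were Esrrg, an orphan nuclear receptor (564.9 kb), and Mecom (511.1 kb), of which Mecom had no listed site at a promoter either. Axon guidance genes held sites in 12 of 31 cases (38.7%), at least 5 in 10 (32.3%) and a median density of 0. At a median territory of 270.2 kb, the share with a site was near the 34.9% of all genes with 100 to 300 kb. The list held 223 sites, at 23.6 per Mb, against 306.2 at the density of all genes, and 6.23% of its territory was covered. Plxna4 held 105 sites, the semaphorin gene Sema6d 20 and Slit3, a ligand of Robo receptors, 19. Robo1 (687.6 kb) and Sema3a (428.7 kb) held 0 sites and had none at a promoter.

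Haematopoietic genes held sites in 15 of 25 cases (60.0%), with at least 5 in 11 (44%) and a median of 18.3 sites per Mb. Their median territory was 77.5 kb, and 28.2% of all genes with 30 to 100 kb held a site. Their 177 sites stood against 110.3 at the density of all genes, with 11.99% covered. Prkcq, a protein kinase C of T cells, held 36 sites at 384.0 per Mb, Skap1, an adaptor of T cells, 33 and Ikzf1, the Ikaros factor of lymphoid cells, 23. Tox (290.2 kb) and Themis (191.9 kb) held 0 sites and had none at a promoter.

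None of the 28 genes of the fibroblast list with territory held a site, and 1 of them, Pdgfra, had a listed site at a promoter. The list holds matrix and contractile genes that mark fibroblasts, and its largest members were the LIM protein gene Lpp (532.4 kb) and the heparan sulphate polymerase gene Ext1 (260.9 kb). The positions of H3K27me3 do not measure expression, so the cell type was not tested by expression of its markers. The 30 genes for widely expressed chromatin and transcription proteins held 0 sites as well, the largest being Arid1b, a subunit of a chromatin remodeller (325.4 kb), and Jarid2, a partner of Polycomb repressive complex 2 (168.0 kb). The endogenous Ash2l gene had 3.28 kb of territory, of which 0.274% was covered, and 0 intronic sites. An exon of this gene had been deleted in the cells, and the protein degraded in the study was the introduced human ASH2L fusion. A listed site lay at a promoter of Ash2l and of 2 other genes of the list, Crebbp and Kdm2b. The territory of these lists was small, with 1.96 Mb for the fibroblast list and 1.87 Mb for the chromatin list, where the density over all genes would give 63.7 and 60.8 sites.

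**Figure D5:**
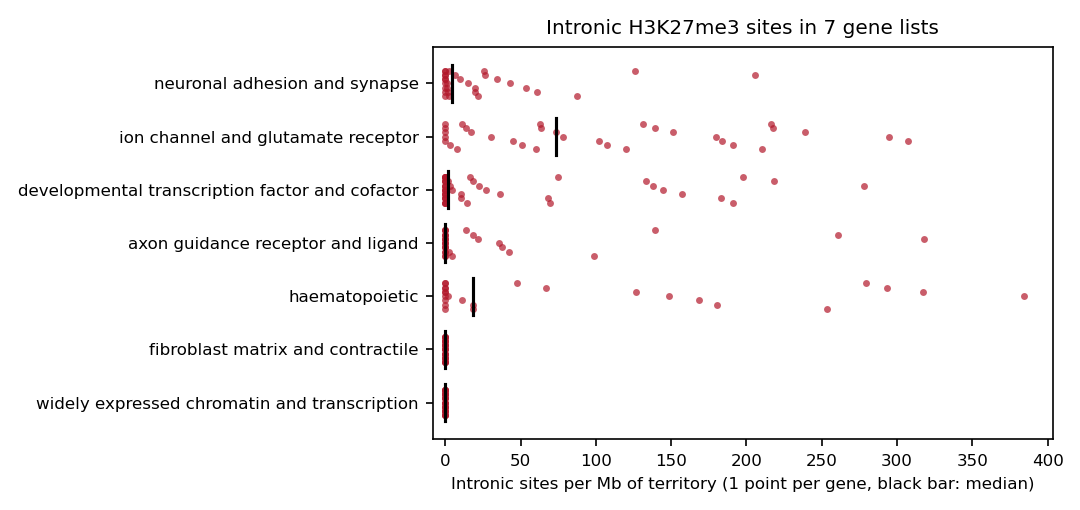
Intronic sites per Mb of territory for each gene of the 7 lists (red points, 1 per gene, spread vertically for clarity) with the median of each list (black bars). The medians are 73.7 for ion channel and glutamate receptor genes, 18.3 for haematopoietic genes, 4.25 for neuronal adhesion and synapse genes and 1.96 for developmental transcription factor genes, and all genes of the fibroblast and chromatin lists are at 0.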

How the data were processed

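The analysis used 1 table, the deposited list of H3K27me3 peaks over all samples, which gives positions in bp and no count, score or value of a library. The series held 8 H3K27me3 and 4 input libraries. According to the labels and the published methods, the authors aligned trimmed reads with BWA to mm10, filtered alignments with SAMtools, merged replicates and called broad peaks with MACS2. The authors' processing notes also name deepTools and DESeq2. Versions, cutoffs and the rule that joined peaks of different samples are not given in the sources used here. A broad peak caller joins nearby stretches, so the number and width of sites depend on its settings. There were 0 further columns of per-sample values.

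Listed starts were taken as 0-based, which makes the smallest width 200 bp, and printed positions are 1-based. Genes, exons and TSSs were taken from GENCODE release M21, and sequence and repeat masking from GRCm38.p6. This release is earlier than the GENCODE release that the published methods name as the source of the reference genome. The annotation used by the authors may therefore differ from it. A promoter site was any listed site within 1 kb of the TSS of a protein-coding transcript. CpG islands were maximal-scoring segments of the repeat-masked sequence (17 for a CpG and -1 for another base) with a minimum of 200 bp, 50% GC and 0.6 for observed over expected CpG. Patch scaffolds were aligned with minimap2 2.31. Other steps used Python 3.11.15 with numpy 2.4.6, pandas 2.3.3 and scipy 1.17.1, and the rule was tested on simulated data.

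No test was run, since the list holds no replicates. Intervals are 95% Wilson intervals for shares and order-statistic intervals for medians, and they treat sites and genes as independent, which neighbouring sites are not. Named genes were the 25 with the most sites, the 10 densest (at least 5 sites and 20 kb), the 10 with the most territory and no site and, from each list, the 3 with the most sites and up to 2 with the most territory and no site. The members, the lists and the comparisons were chosen with earlier results of these data known. The lists of genes that share a symbol root and the counting by shortest gene were added after seeing the data. No sequence is printed for the gene on chromosome 18. Alternatives to the rule were the exon and TSS sets, the distance and how it is measured, a minimum width and merging of sites.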

Additional observations from a re-analysis of the deposited data

How the results depend on the processing

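The list holds no value per library, so no paired analysis was possible because no fit can be made from positions alone, and leaving out a replicate was not possible either. Depth behind a site is unknown. Over 7 results, 45 values were computed under alternatives, of which 0 changed direction, 19 stayed within 1.5 times of a count or within the interval of a value and 26 moved further. Reading exons of protein-coding genes only moved none of them. With a distance of over 10 kb from every TSS there were 15404 sites with a median width of 613 bp and a median GC content of 47.7%, the density ratio of intronic to intergenic sites was 0.947, 20.7% of genes held a site, and genes with a promoter site had 7.18 times the density of the others. With TSSs of protein-coding transcripts only, the median width was 644 bp, the density ratio 0.827 and the median GC content 47.8%. With sites of at least 500 bp only, there were 13853 sites with a median width of 1150 bp and a median GC content of 47.3%, the density ratio was 0.870, 16.0% of genes held a site, the first gene held 160 and the promoter ratio was 8.29. After merging sites separated by less than 1000 bp, there were 10283 sites with a median width of 1096 bp and a median GC content of 47.3%, the density ratio was 0.780, 15.9% of genes held a site, the first gene held 99 and the promoter ratio was 5.91. With the midpoint alone over 3 kb from every TSS, the median width was 651 bp and 20.4% of genes held a site. With each site counted for the shortest gene only, an alternative chosen after seeing the data, the promoter ratio was 7.84. Fgfr2 was the first gene under every alternative named here, by its longest transcript alone.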

Other observations

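Some genes of the lists held 0 intronic sites while listed sites of other classes took up their introns. Of 124 list genes without an intronic site, 7 had at least 50% of their territory inside listed sites. These were named after their values were seen. They were the axon guidance genes Epha8 (100%), Unc5a (96.3%) and Robo3 (81.4%), the developmental factor genes Pax2 and Lmx1b (100% each), the T cell co-receptor gene Cd4 (96.7%) and the potassium channel gene Kcnt1 (89.1%).

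The widest intronic sites, just under the limit of the rule, were in Gsg1l (9977 bp), Gabbr2 (9965 bp), Xkr6 (9959 bp) and Wdfy4 (9953 bp). On 5 chromosomes the intronic density exceeded the intergenic density, by the largest ratio on chromosome 16, with 27.2 against 22.4 sites per Mb.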
